A study of Caenorhabditis elegans with 6 samples.

Results

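The FMRFamide-like peptide genes (flp genes) of Caenorhabditis elegans were examined together with the genes whose products cut, trim, amidate, store and release such peptides. Members were chosen by gene symbol. They were every probe set whose single symbol is flp- followed by a number, and 12 named processing and dense-core vesicle genes, with the probe set of highest mean signal standing for a gene that had several. This gave 25 flp genes and 12 processing and vesicle genes, 37 of the 17118 genes that had a probe set of their own. The reference gene table lists 31 flp genes, and the other 6 were not analysed here. The mean signal chose the probe set and is given as a description. These families were singled out with earlier results of the same arrays known, so counts over the members are set beside the same count over all genes and no test was made over a family.

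Messenger RNA of whole worms was measured on Affymetrix arrays, 1 array to a dish. The worms were of the wild-type strain N2, reared at 20 °C and matched in age at the third larval stage (L3), with about 2000 of them in each dish of 50% K-medium, a dilute salt solution. The 3 dishes labelled Au-NP received citrate-coated gold particles of 4 nm at 5.9 mg/L, named the LC10 in the labels, for 12 h, followed by 12 h without particles, and RNA was taken at 24 h. The 3 dishes of the other group are labelled only control, and the labels do not say whether dishes came from separate cultures, so p-values measure the spread between dishes.

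FMRFamide-like peptides are short signalling peptides that end in arginine and an amidated phenylalanine. Each is cut from a longer precursor by a proprotein convertase at pairs of basic residues, trimmed by a carboxypeptidase, amidated at its end, and packed into dense-core vesicles that neurons release outside the synapse. Most act on G protein coupled receptors, and in this worm they are known for roles in locomotion, egg laying, feeding, fat storage and sleep.

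Transcripts of the flp genes were higher in the arrays labelled Au-NP than in the control arrays, by small amounts. All 25 had a positive difference, and 10 of them rose at an adjusted p of 0.05 (limma with Benjamini-Hochberg adjustment over all 22548 tested probe sets), while 0 fell and 15 did not pass. Over all 17118 genes, each by its highest probe set, 7.09% rose and 4.45% fell, and 60.5% had a positive difference. The median difference of the flp genes was 0.37 on the log2 scale (1.29-fold), with a range from 0.09 to 0.90 (1.06-fold to 1.86-fold), beside a median of 0.04 over all genes. The processing and vesicle genes had no common direction. Their median was -0.02, with 1 of 12 higher, 2 lower and 9 not past the threshold. "Higher" and "lower" follow the array labels throughout, and for some stress genes of this series the labels run against the published account as it is remembered, a recollection that was not checked.

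**Figure D1:**
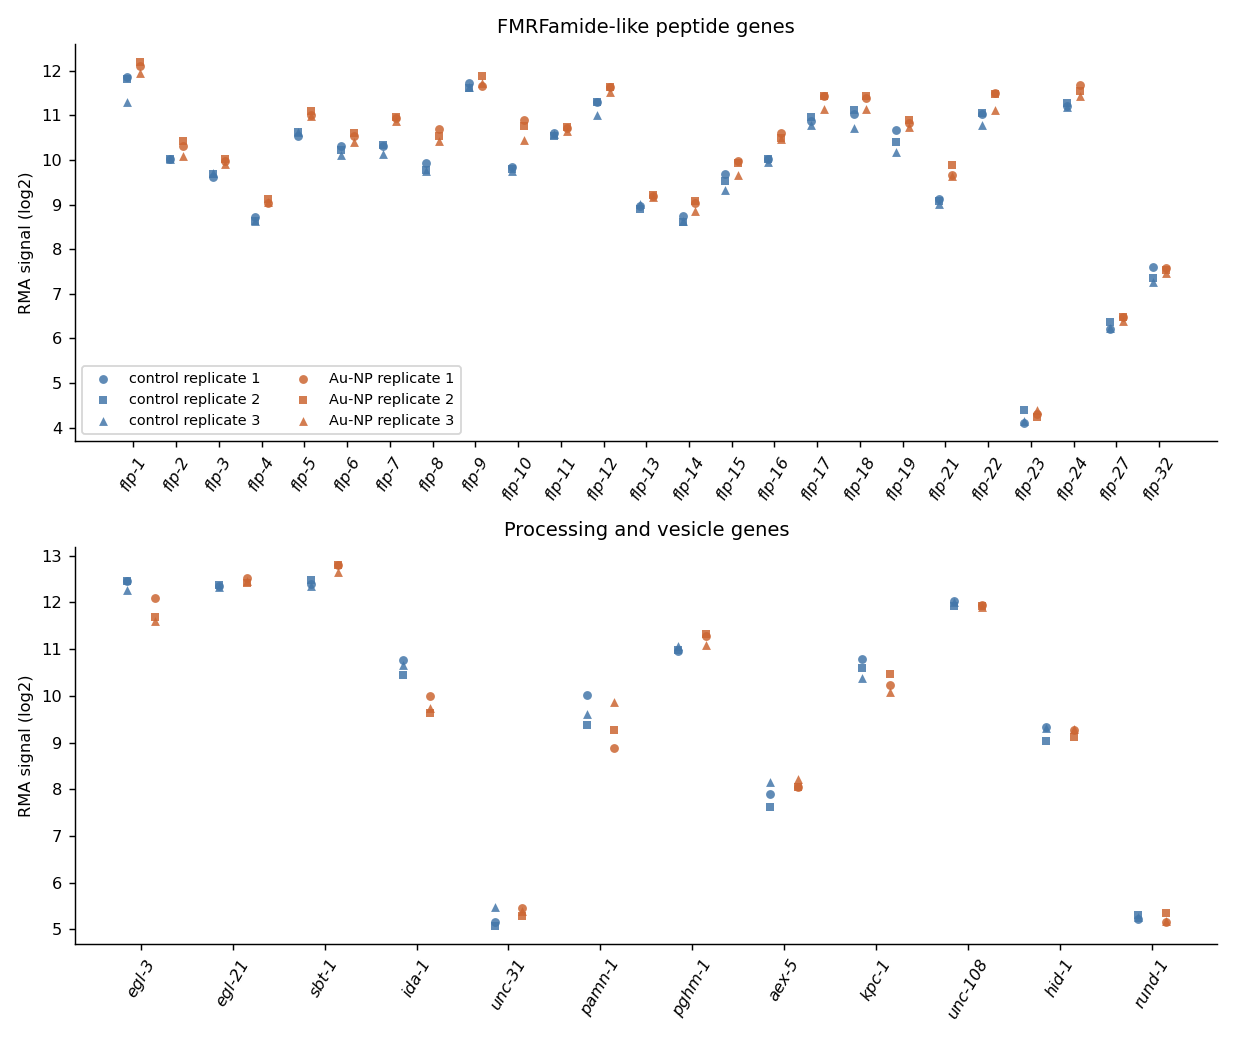
RMA signal (log2, vertical axis) of each array for the 25 flp genes (top) and the 12 processing and vesicle genes (bottom), with blue for control, orange for Au-NP and a marker shape for each replicate. The Au-NP points lie wholly above the control points for 21 of the 25 flp genes. Among the 12 processing and vesicle genes they lie wholly above for egl-21, sbt-1 and pghm-1, and wholly below for egl-3 and ida-1.

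The arrays stood in the same order for most flp genes. For 21 of 25 the Au-NP arrays lay wholly above the controls, against 21.1% of all genes, and for 0 of 25 wholly below, against 9.5% of all genes. The groups overlapped for flp-9, flp-15, flp-23 and flp-32. Of the 12 processing and vesicle genes 3 lay wholly above and 2 wholly below, beside the same shares. Au-NP replicate 3, which stands apart from its group over the whole table (Pearson's r of 0.988 and 0.990 to the other Au-NP arrays, which have 0.997 between them), was the lowest Au-NP array for 22 of the 25 flp genes (88%, against 39.7% of all genes). Among the controls, replicate 3 was lowest for 15 of 25 flp genes (60%, against 25.5% of all genes). Without Au-NP replicate 3 the flp median was 0.44 and 17 flp genes rose, while the share of all probe sets that rose went from 6.24% to 9.08%.

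The widest difference belonged to flp-10. Its log2 signal was 9.85, 9.80 and 9.75 in control replicates 1 to 3 and 10.90, 10.76 and 10.44 in Au-NP replicates 1 to 3. The difference was 0.90 ± 0.12 (SE, n = 3 arrays per group; limma adjusted p = 0.0077), a fold of 1.86. Peptides of flp-10 are known to inhibit egg laying through the receptor EGL-6, as are those of flp-17. The latter gene had 10.86, 10.97 and 10.77 in the controls and 11.42, 11.43 and 11.14 in the Au-NP arrays, and rose by 0.47 ± 0.10 (limma adjusted p = 0.032). Their shared receptor gene egl-6 had 7.31, 7.23 and 7.36 in the controls and 7.57, 7.68 and 7.56 in the Au-NP arrays, with a rise of 0.30 ± 0.08 (limma adjusted p = 0.0459). All 3 genes thus had groups that did not overlap, and of the Au-NP arrays replicate 3 was the lowest in each.

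A role in fat metabolism is known for flp-7, whose peptides leave neurons and act on the intestine's lipid stores by way of the receptor NPR-22. Control values of flp-7 were 10.32, 10.33 and 10.14, and Au-NP values 10.94, 10.97 and 10.86, a difference of 0.67 ± 0.08 with the smallest p of the family (limma adjusted p = 0.0063). The receptor gene npr-22, chosen after its values were seen, had 0.04 ± 0.10 (limma adjusted p = 0.883). Peptides of flp-18 and flp-21 are ligands of NPR-1, the receptor whose natural variants set whether worms feed alone or in groups. For flp-21 the controls had 9.12, 9.08 and 9.02 and the Au-NP arrays 9.65, 9.89 and 9.64, a rise of 0.65 ± 0.09 (limma adjusted p = 0.00849). Those of flp-18 were 11.03, 11.11 and 10.72 against 11.39, 11.42 and 11.14, which did not overlap but gave 0.37 ± 0.13 (limma adjusted p = 0.114). The receptor gene npr-1, also picked after its values were seen, had 0.03 ± 0.15 (limma adjusted p = 0.934).

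In males, flp-8, flp-10 and flp-12 are known to restrain turning during mating. The flp-8 signal was 9.94, 9.78 and 9.75 in the controls and 10.69, 10.54 and 10.42 in the Au-NP arrays, a rise of 0.72 ± 0.10 (limma adjusted p = 0.0077). Its second probe set had 0.45 ± 0.15 (limma adjusted p = 0.0999), so the call rests on the brighter of its probe sets. Control values of flp-12 were 11.30, 11.29 and 11, and Au-NP values 11.64, 11.63 and 11.52, which gave 0.40 ± 0.10 (limma adjusted p = 0.0463).

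A further 4 genes rose. The gene flp-16 had 10.01, 10.03 and 9.95 in the controls and 10.61, 10.49 and 10.46 in the Au-NP arrays, a difference of 0.52 ± 0.08 (limma adjusted p = 0.00936). Signals of flp-5, whose peptides excite the isolated pharynx, were 10.54, 10.63 and 10.62 against 11, 11.10 and 10.98, a rise of 0.43 ± 0.07 (limma adjusted p = 0.0144). Those of flp-4 were 8.72, 8.62 and 8.63 against 9.03, 9.13 and 9.06, a rise of 0.42 ± 0.07 (limma adjusted p = 0.0153). In each of these genes the gap between the groups exceeded the range within either group. The rise of flp-3 was 0.29 ± 0.07 (limma adjusted p = 0.0452), from 9.62, 9.69 and 9.71 to 9.97, 10.02 and 9.90. Its neighbour on the chromosome, flp-2, with 0 coding genes between them in the reference gene table, had 10.01, 10.03 and 10.03 in the controls and 10.30, 10.42 and 10.09 in the Au-NP arrays, a difference of 0.25 ± 0.10 that did not pass (limma adjusted p = 0.149).

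The calls of flp-7, flp-8, flp-10, flp-16 and flp-21 held in every alternative setting that gave them a value. Leaving out each array in turn was among these settings. The chosen probe sets of 8 flp genes carry suffixes of possible cross-hybridization with related sequences. Of the flp genes that rose, these include flp-12 and flp-21. Both have a single probe set, so neither had a value in the setting without cross-hybridizing probe sets. With single arrays left out, flp-3, flp-12 and flp-17 passed only when that array was Au-NP replicate 3, and flp-4 and flp-5 passed in 3 of 6 cases each.

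**Figure D2:**
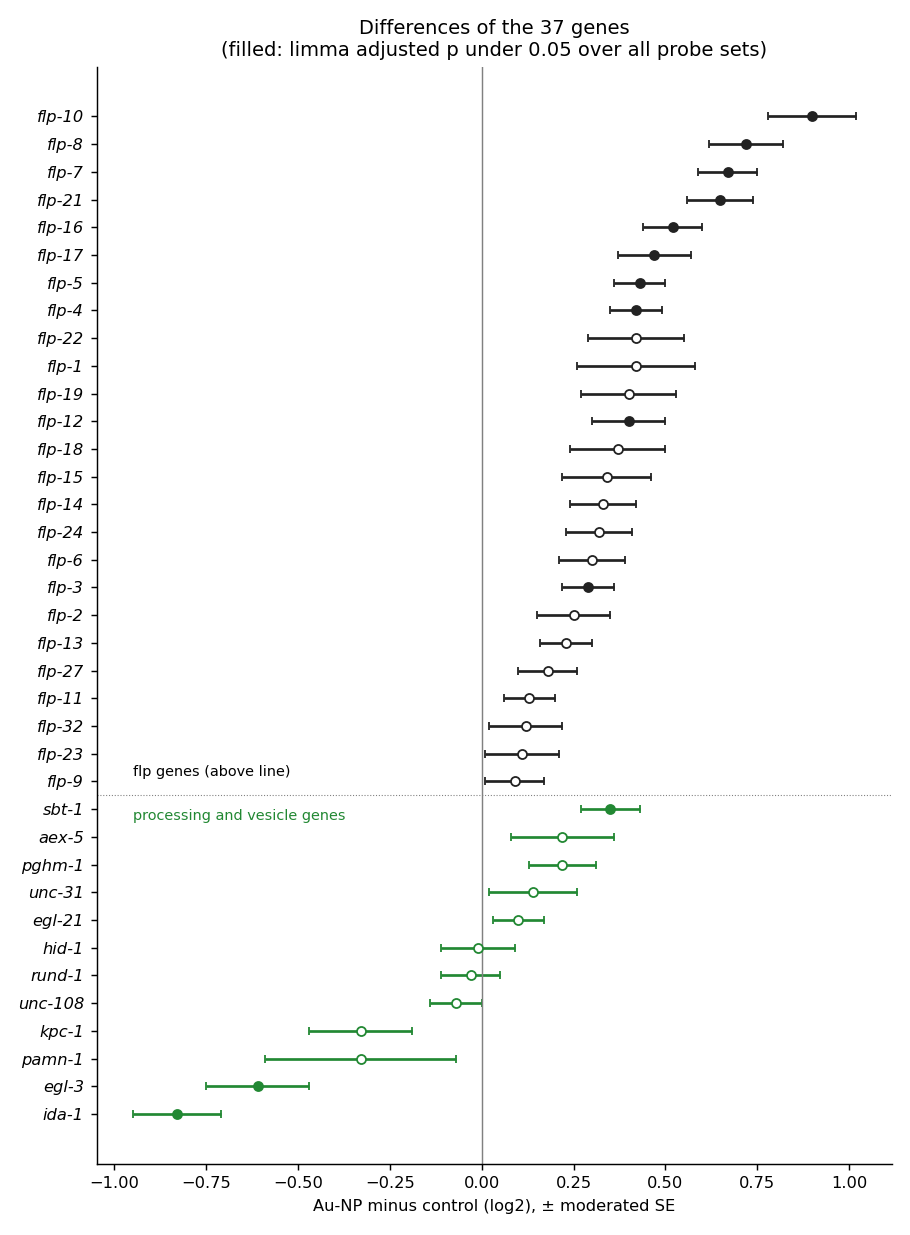
Difference between Au-NP and control (log2, horizontal axis) for each of the 37 genes with its moderated standard error, flp genes above the dotted line and processing and vesicle genes below it. Filled points passed the limma adjusted p of 0.05. All 25 flp points lie right of 0, from 0.09 for flp-9 to 0.90 for flp-10, and the processing and vesicle points run from -0.83 for ida-1 to 0.35 for sbt-1.

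The 15 flp genes that did not pass had differences from 0.09 to 0.42 (limma adjusted p from 0.053 to 0.616). For flp-1, which is expressed in the AVK interneurons and known for a part in locomotion, the brightest probe set had 11.85, 11.80 and 11.29 in the controls and 12.09, 12.19 and 11.94 in the Au-NP arrays. The difference was 0.42 ± 0.16 (limma adjusted p = 0.129), with control replicate 3 well under its fellows. Its other probe sets, at 0.40 ± 0.10 and 0.50 ± 0.12, both passed (limma adjusted p = 0.0483 and 0.0403). Both flp-24 and flp-14 lay just short of the threshold, at 0.32 ± 0.09 and 0.33 ± 0.09 (limma adjusted p = 0.053 and 0.0533). The remaining values were 0.42 for flp-22, 0.40 for flp-19, 0.34 for flp-15, 0.30 for flp-6 and 0.18 for flp-27.

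Several genes of this group are known for roles in sleep and arousal. The gene flp-11, expressed in the sleep-active RIS neuron, had 10.59, 10.54 and 10.58 in the controls and 10.72, 10.73 and 10.64 in the Au-NP arrays. The groups did not overlap, and the difference of 0.13 ± 0.07 did not pass (limma adjusted p = 0.319). For flp-13, which acts in the sleep that follows cellular stress and is released by the ALA neuron, the controls had 8.96, 8.90 and 9.01 and the Au-NP arrays 9.18, 9.22 and 9.17, a difference of 0.23 ± 0.07 (limma adjusted p = 0.08). The gene flp-24, also of ALA, had 11.20, 11.28 and 11.19 against 11.67, 11.54 and 11.43. The arousal peptide gene flp-2 was given above, and frpr-18, the gene of its receptor, had 0.42 ± 0.12 (limma adjusted p = 0.0602, chosen after its values were seen). Signals of flp-9 overlapped between the groups, at 11.72, 11.61 and 11.64 against 11.65, 11.87 and 11.71. Those of flp-32 and flp-23 overlapped too, with differences of 0.12 and 0.11. The flp-23 probe set had a mean signal of 4.27, under the 25th percentile of all tested probe sets (5.32), and whether it lay above background was not known here.

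Transcripts of the convertase that cuts most neuropeptide precursors, EGL-3, and of its helper protein differed in opposite directions. The egl-3 signal was 12.46, 12.46 and 12.27 in the controls and 12.10, 11.68 and 11.60 in the Au-NP arrays, with no overlap. It fell by 0.61 ± 0.14 on the log2 scale (SE, n = 3 arrays per group; limma adjusted p = 0.0335), a fold of 1.52, and its second probe set had -0.50 ± 0.13 (limma adjusted p = 0.0448). The gene sbt-1 encodes a 7B2-type chaperone that EGL-3 needs to become active. Its values were 12.39, 12.48 and 12.34 in the controls and 12.80, 12.80 and 12.65 in the Au-NP arrays, a rise of 0.35 ± 0.08 (limma adjusted p = 0.0369). With single arrays left out, egl-3 passed only without Au-NP replicate 1 or 3, and sbt-1 only without Au-NP replicate 3.

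The lowest difference among the 37 genes was that of ida-1, which encodes a dense-core vesicle membrane protein related to the mammalian autoantigen IA-2. Its controls had 10.77, 10.45 and 10.66 and its Au-NP arrays 10, 9.64 and 9.74, a difference of -0.83 ± 0.12 and a fold of 1.78 (limma adjusted p = 0.0097). A second probe set had -0.88 ± 0.11 (limma adjusted p = 0.00666). Both ida-1 and egl-3 had Au-NP replicate 3 farther from the control mean (-0.89 and -0.80) than the mean of the other Au-NP arrays (-0.80 and -0.51), as did 1 of the 25 flp genes, flp-23. The same held for 8 of the 12 processing and vesicle genes and for 9004 of all 17118 genes. The ida-1 call held in all alternatives that gave it a value, and both its probe sets carry suffixes of possible cross-hybridization with related sequences.

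Among the members, the genes for enzymes of the later steps and for the other convertases did not pass. The carboxypeptidase gene egl-21 had 12.35, 12.38 and 12.33 in the controls and 12.51, 12.42 and 12.45 in the Au-NP arrays, without overlap and with a difference of 0.10 ± 0.07 (limma adjusted p = 0.432). Of the amidation genes, pghm-1, which encodes a peptidylglycine hydroxylating monooxygenase, had 10.95, 10.97 and 11.07 against 11.27, 11.32 and 11.08, a difference of 0.22 ± 0.09 (limma adjusted p = 0.161). The gene pamn-1, for a peptidylglycine amidating monooxygenase, had 10.01, 9.38 and 9.60 against 8.88, 9.27 and 9.86, and its -0.33 ± 0.26 came with the largest error of the 37 genes (limma adjusted p = 0.503). In Au-NP replicate 3 pamn-1 lay 0.19 above the control mean, and in the other Au-NP arrays 0.59 below it on average (-0.59). The furin-like convertase gene kpc-1 had -0.33 ± 0.14 (limma adjusted p = 0.18), and its 4 probe sets ranged from -0.37 to -0.23, none past the threshold. The convertase gene aex-5, which is known for its part in the defecation cycle, had 0.22 ± 0.14 (limma adjusted p = 0.374).

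Apart from ida-1, the genes of vesicle formation and release did not pass. The small GTPase gene unc-108 (RAB-2), which acts in dense-core vesicle maturation, had -0.07 ± 0.07, and its other probe sets had 0.17 and 0.12. The genes hid-1 and rund-1, also of vesicle maturation, had -0.01 ± 0.10 and -0.03 ± 0.08. For unc-31, the CAPS protein needed for dense-core vesicle release, the difference was 0.14 ± 0.12. The groups overlapped for all 4, with limma adjusted p from 0.544 to 0.961. The unc-31 and rund-1 probe sets had mean signals of 5.31 and 5.25, also under the 25th percentile.

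**Figure D3:**
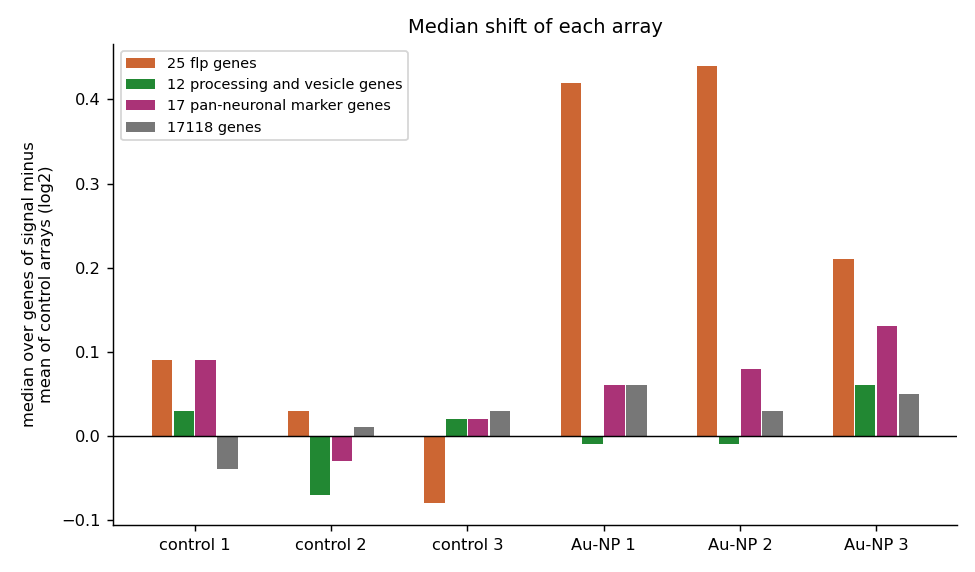
Median over genes of the log2 signal minus the mean of the control arrays (for a control array, of the other controls), for each array and for 25 flp genes, 12 processing and vesicle genes, 17 pan-neuronal marker genes and all 17118 genes. The flp median was 0.42, 0.44 and 0.21 in Au-NP replicates 1 to 3, and every other bar lies between -0.08 and 0.13.

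Array by array, the flp median lay at 0.42, 0.44 and 0.21 above the control mean in Au-NP replicates 1 to 3. The processing and vesicle median lay at -0.01, -0.01 and 0.06 in the same arrays. The gap between these medians was thus 0.43, 0.45 and 0.15, and within the controls, each set against the others, it was 0.05, 0.09 and -0.10. The lowest Au-NP gap exceeded the highest control gap by less than the spread within the Au-NP arrays.

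Genes used in nearly all neurons had a smaller median, a difference that was not tested. Of 17 pan-neuronal markers 3 rose, 1 fell and 13 did not pass, with a median of 0.07. Over all genes 7.09% rose and 4.45% fell. These markers had a median span on the chromosome, introns included, of 6295 bp, against 1424 bp for the flp genes. The part of span in the smaller median was not tested. Those that rose were ric-19 at 0.53 ± 0.09 (limma adjusted p = 0.0136), unc-119 at 0.38 and rpm-1 at 0.35, and the clathrin adaptor gene unc-11, which also acts outside neurons, fell by 1.10. Their summed signal, as log2 of the sum of linear values, was 13.26 to 13.39 in the controls and 13.33 to 13.37 in the Au-NP arrays, where that of the flp genes was 14.83 to 15.01 and 15.21 to 15.40. In RNA of whole worms, more neuronal tissue relative to other tissue and more mRNA per neuron cannot be told apart.

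Markers of other tissues moved with the groups as well, and their counts stand beside 7.09% higher and 4.45% lower over all genes. Germ-line genes fell in 5 of 10 cases and rose in 0 (median -0.72), with summed signals of 12.86 to 13.11 in the controls and 12.12 to 12.60 in the Au-NP arrays. Pharyngeal genes fell in 4 of 8 (median -0.60; 12.86 to 12.99 against 12.38 to 12.54) and body-wall muscle genes in 3 of 8 (median -0.30; 15.61 to 15.70 against 15.22 to 15.40), with 0 higher in either list. The summed signals of these lists thus did not overlap between the groups. The germ-line genes with the smallest p were nos-3 at -1.21, glh-1 at -0.99, pgl-3 at -1 and gld-1 at -1.71. The pharyngeal ones were myo-2 at -1.73, myo-1 at -1.32, myo-5 at -0.61 and pha-4 at -0.64, and the muscle ones unc-54 at -0.97, myo-3 at -0.75 and unc-15 at -0.61. Epidermal genes had 1 of 9 lower, nhr-23 at -0.58, and 0 higher (median -0.24). Intestinal genes had 1 of 8 in each direction, elt-7 at 0.49 and act-5 at -0.85 (median 0.05). By limma 0 of 8 sperm genes passed (0 also at an unadjusted p of 0.05; median 0.01). Au-NP replicate 3 stood apart in the sperm list, with a mean log2 signal of 9.67 against 10.84 and 10.99 in Au-NP replicates 1 and 2 and 10.22 to 10.80 in the controls. Its epidermal mean was 10.31 against 9.85 and 9.98 in the other Au-NP arrays and 10.02 to 10.39 in the controls. All of these markers gave a signal, as every probe set does on this scale. Their part in the flp result was not tested.

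Receptors of FMRFamide-like peptides and close relatives had mostly small positive values. Of 39 measured genes 3 rose, 0 fell and 36 did not pass, which is near the 7.09% of all genes that rose. Positive values were found for 33 of them, against 60.5% of all genes, and their median was 0.08. The 3 were npr-6 at 0.40 ± 0.09 (limma adjusted p = 0.0354), frpr-16 at 0.38 ± 0.09 (limma adjusted p = 0.0361) and egl-6. For 14 of the 39 all Au-NP values lay above all control values, against 21.1% of all genes, and 7 had mean signals under the 25th percentile.

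Beyond the members, 20 genes of dense-core vesicle formation, transport and release were measured. Of these 2 rose and 2 fell, with a median of 0.16. Over all genes 7.09% rose and 4.45% fell, with a median of 0.04. The rises were in ric-19, whose protein binds RAB-2, and in the endosomal GTPase gene rab-5 at 0.34 ± 0.09. Of the 2 that fell, egl-30, the Gq alpha subunit that promotes release, had -0.89 ± 0.14 (limma adjusted p = 0.0114). Among 4 further processing enzymes only the carboxypeptidase gene cpd-2 passed, at 0.37 ± 0.09 (limma adjusted p = 0.0456). Genes of neprilysin-type and other peptidases and their relatives, a list that includes enzymes that break down neuropeptides, had 2 of 29 lower and 0 higher (median -0.01). These counts stand beside the same shares over all genes. The 2 were nep-17, with 10.98, 11.14 and 10.88 in the controls and 9.90, 9.57 and 9.40 in the Au-NP arrays (-1.38 ± 0.14, limma adjusted p = 0.00343), and nep-2 at -0.53 ± 0.08 (limma adjusted p = 0.0116).

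**Figure D4:**
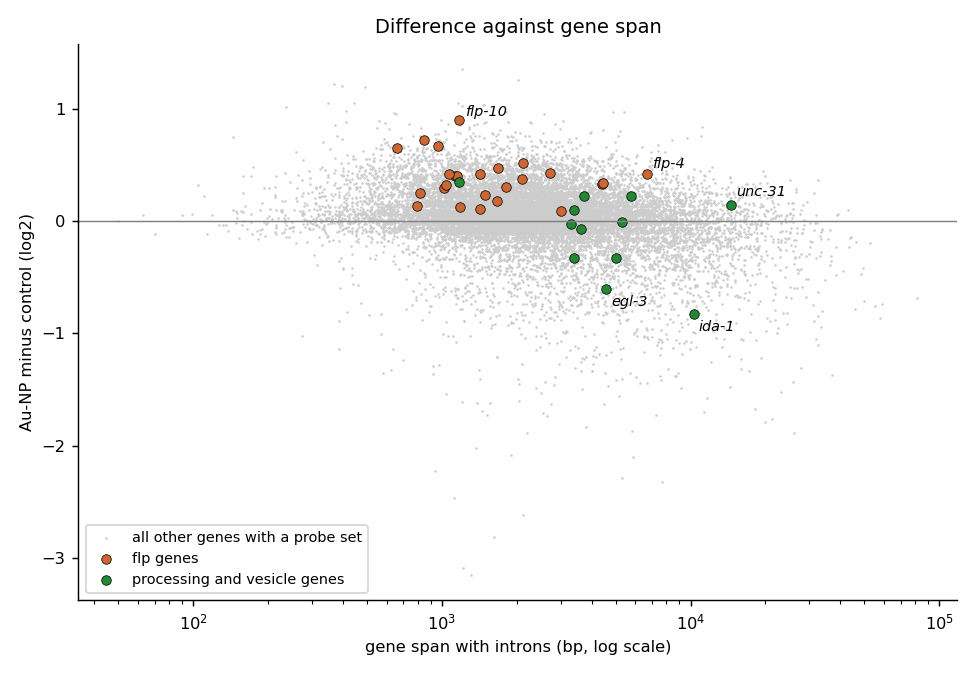
Difference between Au-NP and control (log2, vertical axis) against gene span with introns (bp, log scale) for the flp genes (orange), the processing and vesicle genes (green) and all other genes with a known span (grey). The flp genes have a median span of 1424 bp and all lie above 0; ida-1 and egl-3, the lowest of the members, span 10278 and 4577 bp.

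Gene length on the chromosome moved with the result. Over 17078 genes Spearman's rank correlation between the difference and the span was -0.23, and over the 37 members it was -0.51, as a description across genes, which are not independent. The flp genes had a median span of 1424 bp (659 to 6694) and the processing and vesicle genes 4160.5 bp (1167 to 14488), against 2185 bp over all genes. Within the flp genes it was -0.11, and within the processing and vesicle genes -0.20. The longest flp gene, flp-4 with 6694 bp, had 0.42, and the shortest processing gene, sbt-1 with 1167 bp, had the highest value of its class. Of the 14226 genes in the span range of the flp genes 7.3% rose, and their median was 0.05. That range holds 14226 of the 17078 genes with a span, so its values lie near those of all genes. They do not describe genes as short as most flp genes. With the trend of each array against span subtracted, the flp median was 0.30 and the processing and vesicle median -0.04, with 7 flp genes higher (flp-4, flp-5, flp-7, flp-8, flp-10, flp-16 and flp-21) and egl-3 and ida-1 lower. The calls of flp-3, flp-12, flp-17 and sbt-1 were lost under it (limma adjusted p = 0.154, 0.132, 0.0593 and 0.0975). In that setting 3.57% of 20701 probe sets rose and 5.31% fell. In the main fit 6.24% of all probe sets rose and 5.68% fell.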

How the data were processed

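Whole-worm mRNA was measured on 6 Affymetrix arrays, 3 control and 3 Au-NP. The deposited values are log2 signals per probe set, summarised by the authors with RMA. That tool and Partek 6.4 are named per the submitters' processing notes. RMA normalizes all arrays together and compresses small signals. The log2 scale was read from the values (medians of 7.03 to 7.09), and detection calls, scanner files and the genome build were not used here.

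Affymetrix control probe sets (77 of 22625) were left out. Probe sets took their symbols from the platform annotation (20766 with 1 symbol, 887 with several, 895 with none); 20701 matched the reference table of assembly WBcel235, which supplied spans. The comparison used limma 3.58.1 under R 4.3.3 (group alone, two-sided, Benjamini-Hochberg over 22548 probe sets), with moderated standard errors as errors. The fit was checked on simulated data with 200 changed probe sets per run. It recovered 35.8% of changes of 0.5 on the log2 scale and 77.9% of changes of 1. A difference that did not pass is therefore not shown to be absent. The arrays had more calls (1408 higher and 1281 lower) than the simulation had changes, so the recovered shares need not hold for them. The number of arrays limits precision.

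Members, 11 further gene lists and tests were chosen with earlier results of these data known. All members were named, and of other lists the genes past the threshold, up to 4 with the smallest p; 1 gene that this rule names is not reported here. Alternatives were a replicate block, leaving out each array, rescaling, span correction, a filter on dim probe sets, array weights, probe set choices and another variance model. No sequences are shown.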

Additional observations from a re-analysis of the deposited data

How the results depend on the processing

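The flp median stayed positive in all 15 alternatives (0.30 to 0.44), no flp gene fell in any, and the flp median exceeded the processing and vesicle median by 0.30 to 0.48. The count of flp genes that rose was less stable. It was 10, 19 with array weights, and 5 to 17 with single arrays left out (6 without control replicate 1, 6 without control replicate 2, 5 without control replicate 3, 5 without Au-NP replicate 2 and 17 without Au-NP replicate 3). The share of all probe sets that rose changed too, from 6.24% in the main fit to 10.5% with array weights. Without control replicates 1 to 3 this share was 1.78%, 1.49% and 1.37%. Without Au-NP replicates 1 to 3 it was 2.95%, 0.648% and 9.08%. The single rise among processing and vesicle genes, sbt-1, was lost with the replicate block (limma adjusted p = 0.0528), a second quantile normalization and span correction, and had no value without cross-hybridizing probe sets (0 higher in each), and with single arrays left out the count was 0 to 1. Falls numbered 1 to 2 with single arrays left out and 1 without cross-hybridizing probe sets, which left out ida-1. The processing and vesicle median had no stable sign. It was 0.04 with probe sets averaged per gene, -0.07 without cross-hybridizing probe sets, and -0.06 to 0.0015 with single arrays left out. Signs turned for genes near 0. These were hid-1 (0.0022 with median centring, 0.01 with the mean of probe sets, -0.11 to 0.04 with arrays left out), rund-1 (0.0036 with array weights, -0.09 to 0.0043), unc-108 (0.07 with the mean of probe sets) and flp-11 (-0.004 with span correction). Same-numbered deviations from the group means correlated at -0.335, 0.431 and 0.221. Deviations within a group of 3 arrays constrain each other, so these values cannot tell whether replicate numbers pair the arrays. With the replicate block 11 flp genes rose, beside 4.88% of all probe sets. Span correction took the share of higher calls over all probe sets from 52.4% to 40.2%, with 738 higher in place of 1408. Array weights gave 2372 higher, and single arrays left out gave 146 to 2047 higher and 410 to 1953 lower. The causes were not tested.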
